A study of Mus musculus with 15 samples.

Results

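The Ikaros family genes Ikzf1 (Ikaros), Ikzf2 (Helios), Ikzf3 (Aiolos), Ikzf4 (Eos) and Ikzf5 (Pegasus) were examined in peak lists from HPC-7, a line of early mouse blood cells derived from embryonic stem cells. The 5 genes were taken by name, and every called peak that shared at least 1 bp with a gene span widened by 20 kb on each side was assigned to the gene. These windows held 76 of the 95112 peaks of 12 libraries, and the 5 genes were compared with all 21887 protein-coding genes. The lists came from CUT&Tag, in which an antibody brings a transposase to its target so that nearby DNA is cut and tagged. In cells carrying an shRNA that targets YY1 (shYY1; the number in their descriptions is not explained), the cohesin subunit SMC3 was profiled. Control cells, called WT in the titles with a luciferase shRNA named in their descriptions, were profiled for SMC3, for the transcription factor YY1 and for H3K4me3, a histone mark of active promoters. Each of these 4 groups had 3 libraries, described as biological replicates, from about 150000 cells a reaction. Both arms are HPC-7, a single cell line, and Abcam is named in the description of 1 SMC3 library per arm, the first.

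Ikaros proteins bind DNA through zinc fingers near their start and pair with each other through zinc fingers near their end. They act largely as repressors by bringing the NuRD, Sin3 and CtBP complexes to chromatin, and Ikaros can also work with the SWI/SNF remodeller. Ikaros is required for lymphocyte development and is already present in blood stem and progenitor cells. Helios and Eos are best known from regulatory T cells and Aiolos from B cells, while Pegasus is the most divergent member. Ikaros and Aiolos are the proteins that cereblon, the substrate receptor of the CRL4 ubiquitin ligase, marks for destruction in human cells treated with lenalidomide. YY1 is a zinc finger factor found at many promoters, and cohesin is the ring that holds chromatin loops.

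The lists hold positions only, with no score or read count, so depth is unknown and a peak says that a call was made, not how strong the signal was. The shYY1 SMC3 lists had 2631, 3213 and 3032 peaks, and the control SMC3 lists 4511, 4595 and 2061. The YY1 lists had 8469, 10699 and 3750 peaks and the H3K4me3 lists 16763 to 17895. IgG libraries were not analysed here, so binding and an open-chromatin background cannot be told apart. H3K4me3 lay within 1000 bp of the span of 10 of 10 blood progenitor markers, such as Kit, Gata2 and Runx1, and of 0 of 10 markers of other cells, such as Pax5, Cd3e and Pou5f1. How far YY1 was depleted in shYY1 cells was not measured, because YY1 was profiled in control cells alone among the lists used here.

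RefSeq promoter sequence (GRCm38.p6, the assembly of mm10) was at hand for Ikzf1, with 2 start sites, and for Ikzf5, so for 2 of the 5 genes. The 250 bases before each start are shown, while peaks were counted over windows that also hold the 50 bases after it. H3K4me3 shared at least 1 bp with all 3 windows, in 3 libraries at Ikzf5 and at the first start of Ikzf1. At the second start of Ikzf1 it did so in 2 libraries, and only the replicate 2 peak, from 11690128, reached the bases shown. At the first start the peaks began at 11685847 to 11685874, so they covered only the last part of the bases shown. YY1 was called over the Ikzf5 window alone, in 2 libraries. Capitals mark the core letters CCAT or ATGG and the longer YY1 motif AANATGGC, or GCCATNTT on the other strand; each AANATGGC contains an ATGG. The Ikzf5 sequence is chr7:131410479-131410728 on the minus strand, and the Ikzf1 sequences are chr11:11685675-11685924 and chr11:11689927-11690176 on the plus strand.
Ikzf5: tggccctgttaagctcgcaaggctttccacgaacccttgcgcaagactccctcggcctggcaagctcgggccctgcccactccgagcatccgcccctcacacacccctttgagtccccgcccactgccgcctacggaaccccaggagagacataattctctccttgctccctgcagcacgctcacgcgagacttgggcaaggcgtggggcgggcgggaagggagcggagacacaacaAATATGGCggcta
Ikzf1 first start: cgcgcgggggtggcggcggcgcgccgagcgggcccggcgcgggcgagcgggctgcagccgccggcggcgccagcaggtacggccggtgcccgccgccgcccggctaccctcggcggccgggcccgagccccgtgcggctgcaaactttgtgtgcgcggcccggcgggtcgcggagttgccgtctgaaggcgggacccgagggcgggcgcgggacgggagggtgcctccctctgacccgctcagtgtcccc
Ikzf1 second start: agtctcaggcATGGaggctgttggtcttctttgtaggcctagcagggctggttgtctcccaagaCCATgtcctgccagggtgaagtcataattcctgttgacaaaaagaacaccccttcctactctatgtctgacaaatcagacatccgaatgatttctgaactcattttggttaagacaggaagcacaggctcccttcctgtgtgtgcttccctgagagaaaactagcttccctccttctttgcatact
The Ikzf5 window held the motif as AATATGGC at chr7:131410484-131410491, from -13 to -6 relative to the start. Neither window of Ikzf1 held the longer motif, and the first start of Ikzf1 held no core either, whereas the second held 2. Over the full windows, which run 50 bases past the start, 52 CpG and 81.3% G and C were counted at the first start of Ikzf1, 2 CpG and 49% at the second, and 27 CpG and 65.7% at Ikzf5. Of all 32851 promoter windows in the table, 6.05% held the longer motif and 83.1% the core. Among the windows with H3K4me3 in at least 2 of 3 libraries, 9.42% held the motif, and YY1 was called in at least 2 libraries at 77.7% of those with it and at 53.7% of those without it.

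Across the family, every gene had H3K4me3 in its widened window in 3 of 3 libraries, but for only some did the mark lie on the gene itself. A gene was counted for a target called in at least 2 of its 3 libraries. H3K4me3 was counted at 5 of 5 genes (62.3% of all protein-coding genes) and YY1 at 4 of 5 (46.2%). SMC3 was counted at 3 of 5 genes in shYY1 cells (20.5%) and at 2 of 5 in control cells (26.2%). The windows of the 5 genes were 61870 to 196145 bp long, and among the 8140 genes with windows of that range the shares were 72.6% for H3K4me3, 53.6% for YY1, 24.4% for shYY1 SMC3 and 30.7% for control SMC3. Within the spans alone, H3K4me3 was counted at 3 of 5 genes (51% of all genes), YY1 at 1 of 5 (29.4%), shYY1 SMC3 at 0 (9.45%) and control SMC3 at 0 (12.8%). No count over 5 genes was tested against these shares, and none is read as particular to the family.

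**Figure D1:**
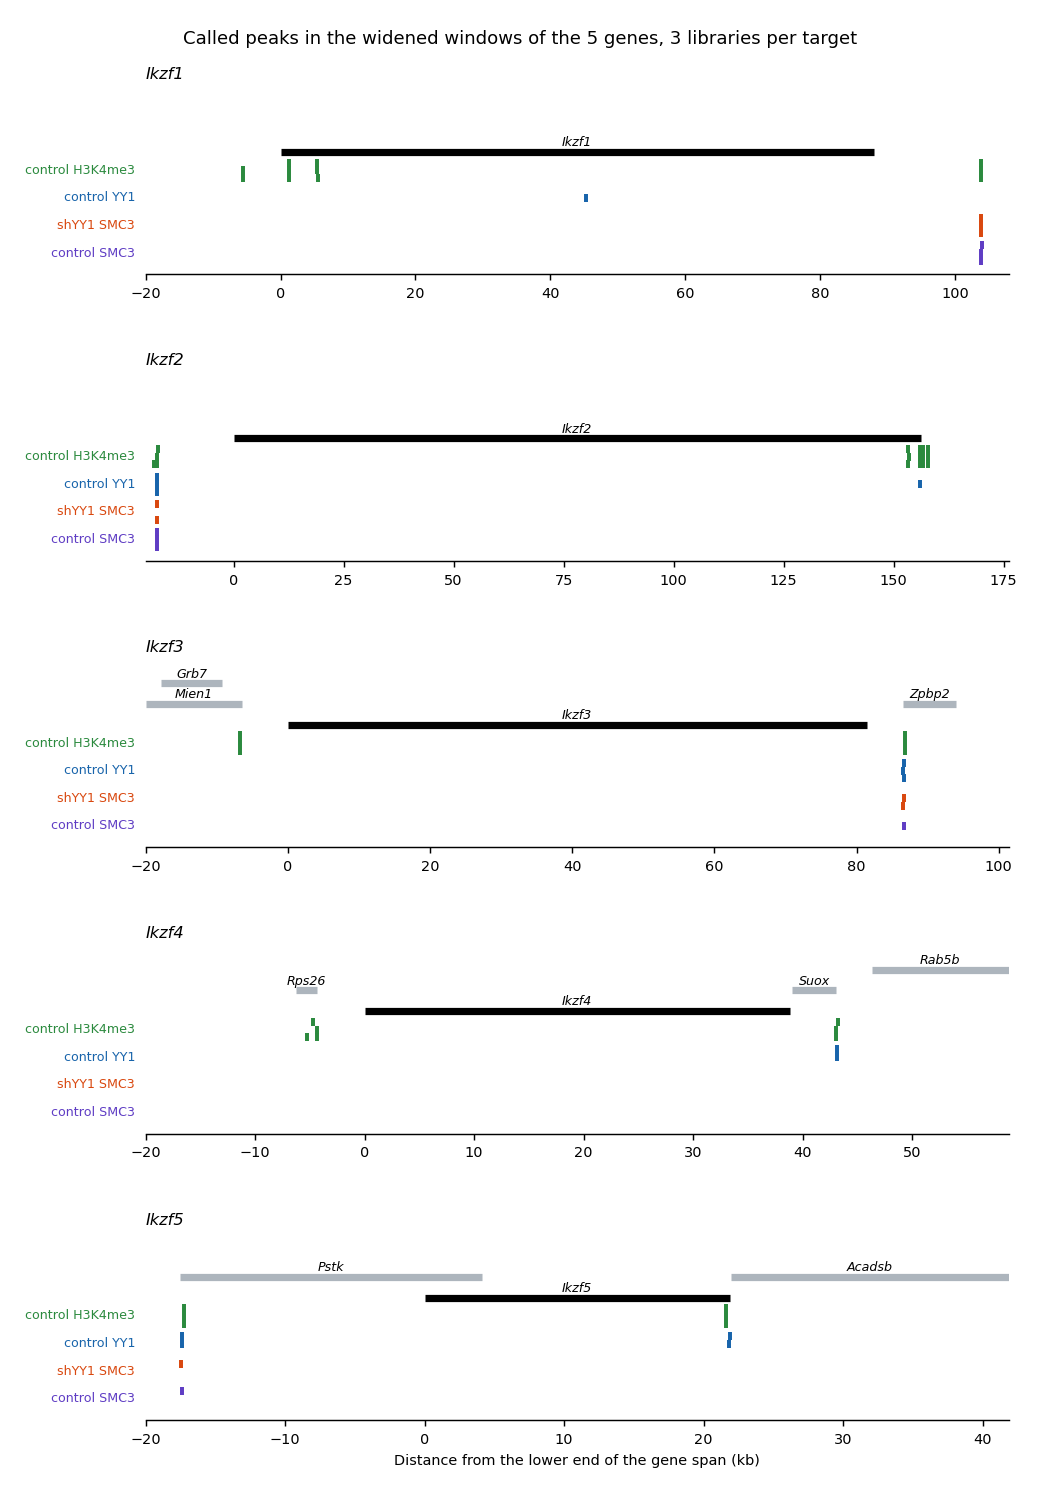
Called peaks around the 5 genes: each tick is a peak, each target has 3 rows of ticks (1 per library, replicate 1 at the top), and the x axis gives the distance from the lower end of the gene span in kb. Black bars are the family genes and grey bars the other protein-coding genes in the window. SMC3 ticks lie outside all 5 black bars, and the peaks around Ikzf3 and Ikzf4 sit at neighbouring genes.

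Merged over the 12 libraries, the windows held 17 separate regions. Of these, 4 lay within 1000 bp of an end of a family gene, 3 elsewhere inside a span, 5 at an end of another protein-coding gene and 5 outside the spans and away from any such end. H3K4me3 was called in at least 2 libraries in 15 of the 17 regions, YY1 in 5, shYY1 SMC3 in 3 and control SMC3 in 2. None of the 7 regions at or inside a family gene had an SMC3 peak in any of the 6 SMC3 libraries. SMC3 within the span was itself uncommon, in at least 2 libraries at 9.45% of all genes in shYY1 and 12.8% in control cells. No share over like regions of all genes was counted, so this is not read as particular to the family.

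Ikzf1, the founding member on chromosome 11 (11684962 to 11772930), carried H3K4me3 at its first annotated start and at or just past its second. The 2 starts are 4252 bp apart, and neither had a YY1 peak. Only the replicate 2 peak covered the second start. At the first start the H3K4me3 peaks were 867, 840 and 559 bp long in replicates 1 to 3, and those at or just past the second start, 11690177, were 383, 459 and 307 bp long. The peaks at the first start were at the 52.3, 62.1 and 36.3 percentiles of peak length in their lists. YY1 was called at neither start in any library, and the only YY1 peak in the window, 201 bp long in replicate 2, lay deep inside the gene at 11730181 to 11730381. A smaller H3K4me3 region 5463 bp below the span was called in 2 libraries. That region lay inside Gm11999, a long noncoding RNA gene on the minus strand (11642203 to 11685635) whose upper end overlaps the Ikzf1 span. The H3K4me3 region at the first start began at 11685847, close to that end, so it cannot be given to Ikzf1 alone.

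The SMC3 in the Ikzf1 window lay at a separate region beyond the upper end of the gene. It was the only SMC3 region of the family windows called in all 6 SMC3 libraries. SMC3 peaks were found there in 3 of 3 shYY1 and 3 of 3 control libraries, H3K4me3 in 3 of 3 and YY1 in 0 of 3. The merged region ran from 11788623 to 11788994, 15693 bp past the span, and its SMC3 part began at 11788643. The nearest protein-coding end was that of Fignl1, a DNA repair ATPase gene, 11294 bp further on. Fignl1 is therefore closer than Ikzf1, and the region is listed under Ikzf1 by the window alone. The nearest YY1 peak of each library was 19847, 19773 and 19997 bp away. The 6 SMC3 summits fell within 27 bp of each other, from 11788868 to 11788895, although the peaks ranged from 137 to 282 bp in length. The H3K4me3 summits, at 11788826, 11788862 and 11788867, lay just below them, and these H3K4me3 peaks of 272 to 330 bp were short for their lists, at the 10.4 to 15.3 percentiles.

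Few SMC3 regions called in every library were without a YY1 call, a count that was made after the values of the Ikzf1 region had been seen. Of 1339 merged SMC3 regions called in all 6 libraries, 1189 (88.8%) had YY1 in 3 libraries, 141 in 2, 7 in 1 and 2 (0.149%) in none. H3K4me3 was called in 3 libraries at 1272 (95.0%) of the same 1339. The share with YY1 depended on the cut: of 692 regions in 5 of 6 SMC3 libraries, 457 (66.0%) had YY1 in 3. The Ikzf1 region was 1 of these 2, and the only 1 of them with H3K4me3 in 3 libraries; the other had H3K4me3 in 1. Because YY1 was counted in control cells and from called peaks only, a YY1 signal under the calling threshold would not show.

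**Figure D2:**
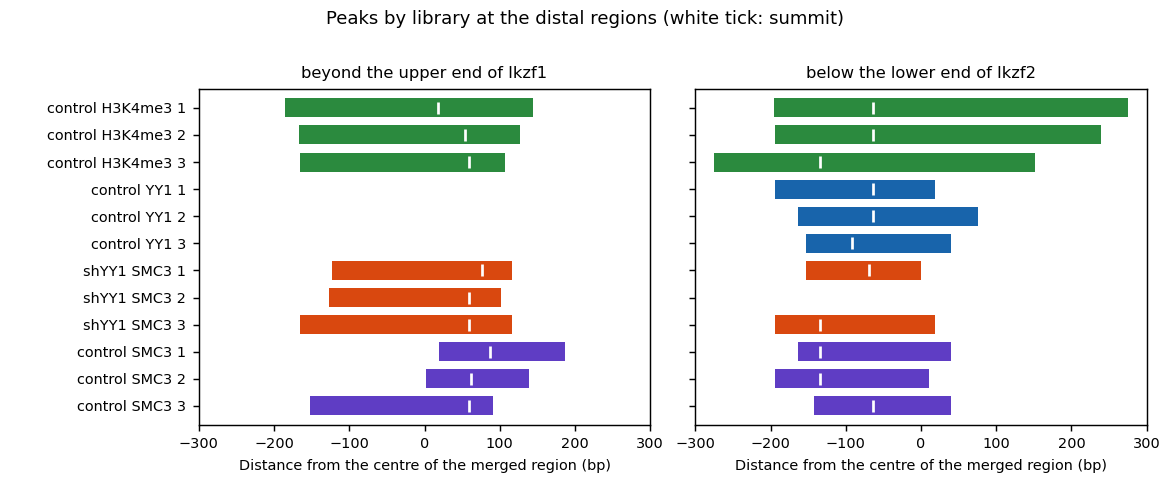
Peaks in each library at the regions beyond the upper end of Ikzf1 and below the lower end of Ikzf2. Bars span the called peaks, white ticks are summits, and the x axis is the distance in bp from the centre of the region merged over all libraries. The Ikzf1 region has peaks in 9 of 12 libraries and none for YY1, and the Ikzf2 region has peaks in 11 of 12, with shYY1 SMC3 replicate 2 missing.

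In shYY1 cells the SMC3 peaks at the Ikzf1 region covered 240, 229 and 282 bp, against 167, 137 and 244 bp in control cells. The longest control peak, in replicate 3, exceeded 2 of the 3 shYY1 peaks, so the arms overlapped. The mean was 250 ± 28.0 bp in shYY1 and 183 ± 55.2 bp in control cells (SD, n = 3 each), a difference of 67.7 bp (exact two-sided permutation p = 0.3, where 0.1 is the smallest possible, adjusted p = 1 over 8191 genes). Without control replicate 3, the shortest list, the difference was 98.3 bp and the arms did not overlap (exact permutation p = 0.1, again the smallest possible). The shYY1 peaks sat at the 43.5, 49.0 and 64.6 percentiles of peak length in their lists, and the control peaks at the 19.4, 5.78 and 47.6 percentiles. Of the 8191 genes with an SMC3 peak in the window in any library, 24.9% had a positive difference, 74.9% a negative one, and the median was -52.7 bp. These differences were not scaled to the size of the lists. The shYY1 SMC3 lists held 765025, 840114 and 817758 bp of called peaks, and the control SMC3 lists 1263646, 1267025 and 592885 bp. The part of list size in the differences over all genes was not tested.

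Ikzf2, or Helios, on chromosome 1 (69531207 to 69687351) had no other protein-coding gene in its window, and H3K4me3 clustered at its upper end in several short peaks. In 3 of 3 libraries there were peaks at 69684127 to 69684792, 69686932 to 69687297, 69687617 to 69687996 and 69688894 to 69689232. The longest H3K4me3 peak among them was 619, 347 and 380 bp in replicates 1 to 3, at the 33.9, 20.4 and 20.9 percentiles of peak length. YY1 was called once at that end, as a 180 bp peak in replicate 2, and SMC3 in no library.

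A separate region, with all 3 targets, lay 17 kb below the lower end of Ikzf2. The merged region ran from 69513602 to 69514151, and H3K4me3 and YY1 were called there in 3 of 3 libraries each. YY1 peaks were 213, 239 and 194 bp long, with summits at 69513813, 69513813 and 69513785. SMC3 was called in 2 of 3 shYY1 libraries, with peaks of 154, 0 and 213 bp in replicates 1 to 3, and in 3 of 3 control libraries, with peaks of 204, 205 and 183 bp. The highest shYY1 value exceeded every control value, and the library without a call, shYY1 replicate 2, had the longest of the shYY1 lists. The mean was 122 ± 110 bp in shYY1 and 197 ± 12.4 bp in control cells (SD, n = 3 each), a difference of -75 bp (exact two-sided permutation p = 0.4, adjusted p = 1). Without shYY1 replicate 2 it was -13.8 bp, and with lists limited to an equal number of their longest peaks it was 10 bp. The summits of H3K4me3, YY1 and SMC3 shared positions: 69513813 was the summit of 2 H3K4me3, 2 YY1 and 1 control SMC3 peak, and 69513742 that of 1 H3K4me3, 1 shYY1 SMC3 and 2 control SMC3 peaks.

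Ikzf3, or Aiolos, on chromosome 11 (98464610 to 98546031) had no peak of any target inside its span in any library. All peaks of its window belonged to 2 regions at other genes. The first, at an end of Mien1, a gene named for cell migration, had H3K4me3 in 3 of 3 libraries and neither YY1 nor SMC3. The second, at 98550916 to 98551837, covered the annotated start of Zpbp2, which encodes a sperm acrosome protein, 5066 bp above Ikzf3. There H3K4me3 peaks were 910, 922 and 845 bp long and YY1 peaks 486, 455 and 343 bp, which placed the YY1 peaks at the 80.2, 65.7 and 54.8 percentiles of their lists. The 3 YY1 summits fell on the same base, 98551293, which was also the summit of the control SMC3 peak.

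SMC3 at the Zpbp2 start covered 0, 209 and 230 bp in shYY1 cells, against 0, 301 and 0 bp in control cells. The arms overlapped, with the highest value in control replicate 2. The difference of the means, 146 ± 127 bp in shYY1 and 100 ± 174 bp in control cells (SD, n = 3 each), was 46.0 bp (exact two-sided permutation p = 1, adjusted p = 1). It was -4.17 bp without control replicate 1 or without control replicate 3.

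Ikzf4, or Eos, on chromosome 10 (128630839 to 128669671) also had no peak of any target inside its span, and no SMC3 peak in its window in any of the 6 libraries. Its H3K4me3 coverage was nonetheless the highest mean of the family, and all of it lay at the starts of Rps26 and Suox. Rps26, a gene for a protein of the small ribosomal subunit, had H3K4me3 in 3 of 3 libraries at 128625397 to 128626943 without YY1 or SMC3. Suox, which encodes sulfite oxidase, had H3K4me3 at 128673354 to 128674596 in 3 of 3 libraries, with the summit at 128673950 in each. YY1 peaks there were 131 and 152 bp long in replicates 1 and 2, which placed them at the 0.165 and 1.29 percentiles of peak length, and replicate 3 had none. The annotated start of Rab5b, an endosomal GTPase gene, lay 26597 bp beyond the upper end of Ikzf4 and so outside the window. It had H3K4me3 and YY1 in 3 of 3 libraries and SMC3 in 3 of 3 of both arms.

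Ikzf5, or Pegasus, on chromosome 7 (131388649 to 131410518) was the member with the longest H3K4me3 peak on its own start and the only 1 with YY1 there in at least 2 libraries. The region was 131409548 to 131410911, and its H3K4me3 peaks were 1364, 1354 and 1359 bp long, at the 84.8, 91.4 and 90.3 percentiles of the lists. It also covered the start of Acadsb, an acyl-CoA dehydrogenase gene on the opposite strand, whose span begins 83 bp above that of Ikzf5, so the peak cannot be given to either gene alone. YY1 peaks were 343 and 496 bp long in replicates 1 and 2, and replicate 3 had none. Replicate 3 was the shortest YY1 list, as at Suox, and the part of list length in these missing calls was not tested. Both YY1 peaks contained the AATATGGC motif shown above, and their summits, 131410527 and 131410524, lay 40 and 37 bp from its centre on the Acadsb side. The same letters are read as GCCATATT in the Acadsb window. SMC3 was called at this promoter in 0 of 3 shYY1 and 0 of 3 control libraries.

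The SMC3 peaks in the Ikzf5 window lay instead at the start of Pstk, which encodes a kinase needed to make selenocysteine, and whose span overlaps that of Ikzf5. That region, 131370970 to 131371765, had H3K4me3 in 3 of 3 libraries and YY1 in 2 of 3, with peaks of 309 and 450 bp. SMC3 covered 263, 0 and 0 bp in shYY1 cells, against 220, 0 and 0 bp in control cells. The only library with a call in each arm was the first, whose description names Abcam; the part of the antibody was not tested. The difference was 14.3 bp (exact two-sided permutation p = 1, adjusted p = 1), and without shYY1 replicate 1 it was -73.3 bp, without control replicate 2 or 3 -22.3 bp.

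**Figure D3:**
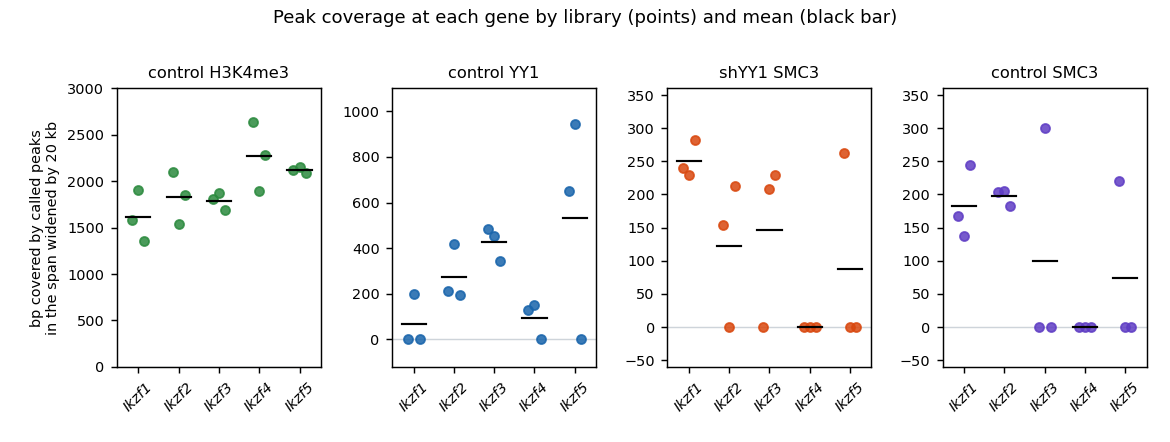
Base pairs covered by called peaks in each widened window, by target. Points are the 3 libraries (replicates 1 to 3 from left to right), black bars the means, and the y axes differ between H3K4me3, YY1 and SMC3. H3K4me3 runs from 1354 to 2642 bp, Ikzf4 has 0 bp of SMC3 in all 6 libraries, and Ikzf1 is the only gene with SMC3 in all 6.

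Ordered by mean H3K4me3 coverage of the window, the genes were Ikzf4 (2273 ± 373 bp), Ikzf5 (2120 ± 32.2 bp), Ikzf2 (1829 ± 284 bp), Ikzf3 (1787 ± 93.3 bp) and Ikzf1 (1614 ± 278 bp; SD, n = 3 each). The ranges of every pair of neighbours in this order overlapped, while Ikzf4 and Ikzf5 lay wholly above Ikzf3, and Ikzf5 also above Ikzf1. These means lay between the 66.8 and 79.1 percentiles of all protein-coding genes. Ordered by YY1 coverage of the window, the genes were Ikzf5 (533 ± 484 bp), Ikzf3 (428 ± 75.2 bp), Ikzf2 (275 ± 125 bp), Ikzf4 (94.3 ± 82.4 bp) and Ikzf1 (67.0 ± 116 bp). Only between Ikzf2 and Ikzf4 did the ranges of neighbours not overlap, with 194 bp the lowest value of Ikzf2 and 152 bp the highest of Ikzf4. Both orders are of windows, not of the genes themselves. All YY1 in the Ikzf3 window lay at the Zpbp2 start and all in the Ikzf4 window at the Suox start. In the Ikzf5 window 309 and 450 bp of the YY1 in replicates 1 and 2 lay at the Pstk start. Most of that of Ikzf2 lay at the region below its lower end.

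Over all 8191 genes with an SMC3 peak, the exact permutation test with Benjamini-Hochberg adjustment gave 0 genes at an adjusted p under 0.05 (0%). The count at an unadjusted p under 0.05 was also 0, since 3 libraries against 3 cannot go below 0.1. At 4.42% of these genes all 3 shYY1 values were below all 3 control values and at 0.33% above them, while this held in neither direction for any of the 4 family genes with an SMC3 peak (0 of 4 each). The values compared here were not scaled to the bp of called peaks in each list.

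The genes whose coverage over the 12 libraries was most like that of each member were found by Euclidean distance on log2(1 + bp). For Ikzf1 they were Tmem29 and Apex2 (distances 1.47 and 1.83), whose spans overlap on the X chromosome and which had, like Ikzf1, SMC3 in all 6 libraries, H3K4me3 in 3 and YY1 in 1. For Ikzf2 they were Spats1 and Mapkapk3 (1.06 and 1.09), and for Ikzf3 Prrc2c and Gng5 (1.03 and 1.23). For Ikzf4 they were Chmp6 and Pilrb2 (0.381 and 0.384), and for Ikzf5 the chromosome 11 genes 4930563E22Rik and 4933427D14Rik (both 1.00). Likeness here is of peak coverage in windows, and the first and last pair each lie close together.

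The genes for the complexes that Ikaros recruits all had H3K4me3 and YY1 in the widened window, though SMC3 was within the span of fewer of them. Of the 18 genes of NuRD, Sin3 and CtBP, 18 had H3K4me3 and 18 YY1 in the widened window, 14 had SMC3 in shYY1 and 15 in control cells, against 62.3%, 46.2%, 20.5% and 26.2% of all genes. Within the spans alone YY1 was at 15 of the 18, against 29.4% of all genes. SMC3 was there at 7 in shYY1 cells and at 9 in control cells, against 9.45% and 12.8%. The lists were not compared with genes of like window length or with genes that carry H3K4me3. Their median coverage was 2760 bp of H3K4me3 and 562 bp of YY1, against 973 and 80.3 bp over all protein-coding genes. For SMC3 it was 254 bp in shYY1 and 230 bp in control cells, against 0 bp in both arms over all genes. Taken gene by gene, the median difference, shYY1 minus control, was -30.5 bp over the 16 genes of the list with an SMC3 peak. Over all genes with one it was -52.7 bp. Sin3a, the scaffold of the Sin3 complex, Chd4, the remodelling ATPase of NuRD, and the NuRD subunit gene Gatad2a had the most YY1, with means of 1922, 1909 and 1763 bp. In the widened window of Chd4 the SMC3 peaks covered 329, 479 and 345 bp in shYY1 cells, against 810, 877 and 516 bp in control cells, with no overlap. Gatad2b, chosen after its values were seen, was the other gene of the list with every shYY1 library lower, with 168 to 234 bp in shYY1 cells, against 246 to 340 bp in control cells, and Cdk2ap1, chosen likewise, the only 1 with every shYY1 library higher. That makes 2 lower and 1 higher of the 16 genes of the list with an SMC3 peak, beside 4.42% lower and 0.33% higher over all genes. Cdk2ap1 had 489, 489 and 403 bp in shYY1 cells, against 298, 321 and 0 bp in control cells. All these values are for widened windows, which can hold other genes, and which gene the peaks lie nearest was not examined.

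**Figure D4:**
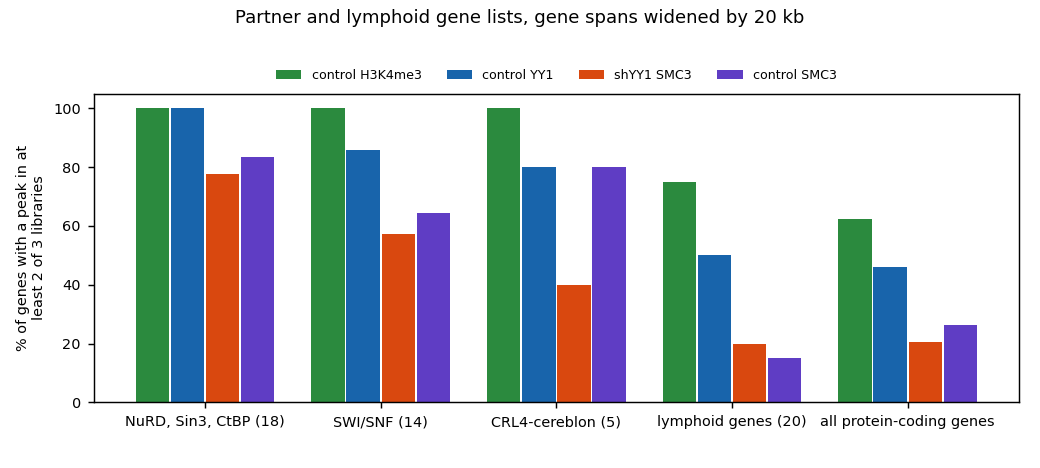
Share of genes with a peak in at least 2 of 3 libraries within the span widened by 20 kb, for the lists of Ikaros partners, the cereblon ligase and lymphoid genes, beside all 21887 protein-coding genes. Bars give H3K4me3, YY1, shYY1 SMC3 and control SMC3 in percent, and the number of genes stands in brackets. YY1 reached 100% of the NuRD, Sin3 and CtBP genes and 50% of the lymphoid genes, against 46.2% of all genes.

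In their widened windows the 14 SWI/SNF genes had H3K4me3 at 14, YY1 at 12, shYY1 SMC3 at 8 and control SMC3 at 9. The shares of all genes were again 62.3%, 46.2%, 20.5% and 26.2%. The difference between any list and all genes was not tested. Arid1b, a DNA-binding subunit, had the most YY1 (mean 1699 bp), followed by Actl6a (1406 bp) and Arid1a (983 bp). Of the 11 genes with an SMC3 peak, 0 had arms that did not overlap, beside 4.42% lower and 0.33% higher over all genes with one. Of the 5 genes of the cereblon ligase, 5 had H3K4me3, 4 YY1, 2 shYY1 SMC3 and 4 control SMC3, beside the same shares. Crbn, the cereblon gene, named after its values were seen, had YY1 in replicate 2 only and SMC3 in 0 shYY1 libraries and 1 control library. The scaffold gene Cul4b had SMC3 in 0 shYY1 libraries and in 2 control libraries, with 267, 0 and 172 bp, while Cul4a had the most YY1 (mean 1133 bp), followed by Rbx1 (827 bp) and Cul4b (558 bp).

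Lymphoid genes, many of them known targets of Ikaros, were counted in the same widened windows, and none of their shares was tested against all genes. Of 20 genes, 15 had H3K4me3, 10 YY1, 4 shYY1 SMC3 and 3 control SMC3, or 75%, 50%, 20% and 15%, against 62.3%, 46.2%, 20.5% and 26.2% of all genes. Within the spans alone H3K4me3 was at 10 of the 20, against 51% of all genes. There 0 of the 20 had SMC3 in at least 2 libraries of either arm, against 9.45% of all genes in shYY1 and 12.8% in control cells. Ebf1, Pax5, Cd79b and Dtx1 had no peak of any target. Notch1, the receptor that starts T cell development, had the most YY1 (mean 1196 bp), ahead of Tcf3 (902 bp) and Cd79a (819 bp). SMC3 in the widened window of Notch1 covered 253, 369 and 331 bp in shYY1 cells, against 385, 749 and 539 bp in control cells, with no overlap. In neither arm was it within the Notch1 span in at least 2 libraries, and which gene these peaks lie nearest was not examined. Of the 7 genes in the list with an SMC3 peak, only Notch1 had that pattern, beside 4.42% of all 8191 genes with one. The window of Tcf3 shares peaks with that of Mbd3, as do those of Rag1 and Rag2 and of Igll1 and Vpreb1, so these pairs do not count as separate observations.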

How the data were processed

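Of 15 CUT&Tag libraries, 12 peak lists were analysed, leaving out those of IgG. The deposited lists give peak positions and summit offsets in base pairs, 1 list per library, per the file headers. The tools MACS2 2.2.9.1, Bowtie2 2.5.1, cutadapt 4.5 and Picard 3.1.1 and the build mm10 are named per the submitters' processing notes. For their settings and the role of IgG in peak calling nothing is given in the sources used here, and some numbers are missing from the running peak names. Summit offsets ran from 0 to the length minus 1, so starts were counted from 0 and 1 was added.

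Gene spans came from RefSeq (GRCm38.p6, 21887 protein-coding genes). Coverage was the number of bp of called peaks inside the span widened by 20000 bp, a gene end meant within 1000 bp, and a percentile is the rank of a peak's length in its list. Arms were compared by an exact two-sided permutation test over 20 assignments with Benjamini-Hochberg adjustment over 8191 genes, in Python 3.11.15 with numpy 2.4.6. Overlap counts and this test were tested on simulated data. Lists were described by counts and medians.

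The text names the 5 genes, coding neighbours at reproducible peaks, the 2 genes nearest in pattern, and from each list genes whose SMC3 was called in all 3 libraries of 1 arm and in 0 of the other (there were none) and the 3 with most YY1. Other genes are named where a small count singles them out or are marked as chosen after their values were seen. The noncoding gene Gm11999 is named because its span overlaps that of Ikzf1. The 3 replicates are called biological in the labels' protocol. The members and lists were chosen with earlier results of these data known. No sequence of the distal regions was used here, and depth is unknown, so no counting interval is given.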

Additional observations from a re-analysis of the deposited data

How the results depend on the processing

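The lists hold no score, so no stricter peak threshold was run, and with 3 libraries in each arm no p could go under 0.05 in any setting. Differences in SMC3 coverage at Ikzf3 and Ikzf5 changed sign with the window or a left-out library, and that at Ikzf2 with an equal number of longest peaks, a setting that also drops short peaks; the cause was not tested. With windows of 50 kb the difference was -17.3 bp at Ikzf3 and -29.0 bp at Ikzf5. With an equal number of longest peaks it was 10 bp at Ikzf2 and 169 bp at Ikzf1, and counted as peaks it was 0 at Ikzf1 and Ikzf5. Per Mb of called peaks in each list it was 93.1 bp at Ikzf1, -56.7 bp at Ikzf2, 97.5 bp at Ikzf3 and 56.6 bp at Ikzf5, with the signs kept. Leaving out 1 library gave 44.8 to 98.3 bp at Ikzf1, -120 to -13.8 bp at Ikzf2, -4.17 to 146 bp at Ikzf3 and -73.3 to 87.7 bp at Ikzf5. Without both libraries that name Abcam it was 65.0 bp at Ikzf1, -87.5 bp at Ikzf2 and 69.0 bp at Ikzf3, and Ikzf5 had no SMC3 peak left. Ikzf4 had an SMC3 value with 50 kb only (-59.7 bp, exact permutation p = 0.5), and with spans alone or 5 kb no gene had one. Equal replicate numbers did not pair the libraries (correlation of deviations 0.0428, 0.00204 and -0.0353, and not every library correlated best with its own number). The replicate block gave 67.7 bp at Ikzf1 (exact sign-flip p = 0.25, the smallest possible) and changed no call.

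Within spans alone H3K4me3 was counted at 3, YY1 at 1 and SMC3 at 0 genes in both arms; with 5 kb H3K4me3 stayed at 5 and YY1 was at 3, while SMC3 was at 0 in both arms. With 50 kb SMC3 was at 4 genes in both arms. Called in 3 of 3 libraries, YY1 was at 2 genes, shYY1 SMC3 at 1 and control SMC3 at 2, which turns round the 3 in shYY1 and 2 in control cells. Leaving out a library gave 2 to 4 genes for YY1 and 1 to 2 for shYY1 SMC3, since every remaining library then had to have a peak. The median H3K4me3 coverage of the 5 genes (1829 bp) was 656 bp in spans alone, 1314 bp with 5 kb, 3377 bp with 50 kb, 2120 bp with peaks within 1000 bp joined and 1777 to 1976 bp without 1 library. That of YY1 (275 bp) was 60.0 bp in spans alone, 67.0 bp with 5 kb, and 785 bp with 50 kb.

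For the lists, spans alone gave shYY1 SMC3 at 7, 4 and 0 genes of NuRD, Sin3 and CtBP, of SWI/SNF and of the lymphoid list, and control SMC3 at 9 and 4 genes of the first pair, 2 of the cereblon ligase and 0 of the lymphoid list. Lymphoid YY1 was then at 6. Called in 3 of 3 libraries, YY1 was at 10 NuRD, Sin3 and CtBP and 5 lymphoid genes, shYY1 SMC3 at 5 SWI/SNF genes and 1 ligase gene, and control SMC3 at 9 NuRD, Sin3 and CtBP genes and 0 ligase genes.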
